A study of Mus musculus with 80 samples.

Results

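Muscle stem cells (MuSCs) of extraocular muscles (EOM) were compared after and before their transfer into a limb muscle, the tibialis anterior (TA). The comparison took every RNA library of EOM cells that the study's quality table passes, 7 made from cells recovered from grafts and 8 from cells taken before grafting. This is 15 of the 40 RNA libraries and of the 80 samples of the series. Donors were Tg:Pax7-nGFP mice of 7 or 7.6 weeks on a C57BL/6;DBA2 F1/JRj background, in which a transgene carrying Pax7 regulatory sequence marks MuSC nuclei with GFP. Recipients were Rag2-/-;γC-/- mice on a C57BL/6J background, which lack lymphocytes but keep macrophages, endothelial cells and muscle fibres of their own, and their TA had been injured with cardiotoxin before the transfer. The label gives day 21 for the grafts, while the study's text gives a later day in one place and a span of weeks in another, so the exact day is uncertain. Cells were sorted at both steps, by size, granularity and GFP intensity for isolation from muscle. For cells recovered from grafts the study's text names GFP positivity alone. Each pre-graft library held 500 cells by its label and each graft library far fewer, down to 9, so that cell input and grafting cannot be told apart. The samples came from 2 experiments, with 1 graft and 3 pre-graft libraries of Experiment 1 and 6 grafts and 5 pre-graft libraries of Experiment 2, and 6 donors gave a library at both steps. TA cells of the same donors, grafted into the contralateral TA, are used below in a single test.

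Extraocular muscles move the eye and arise from head mesoderm without the Pax3 and Lbx1 programme that builds limb muscle, and Hox genes, which mark position along the trunk and limb, are silent in them. Their stem cells carry Pax7 and Myf5 like those of other muscles, together with regional regulators such as Alx4 and Lmx1a. A transferred MuSC that survives the first days can fuse into fibres or settle again under the basal lamina of its host.

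Levels below are reads per 1000000 reads on genes outside the mitochondrial genome (RPM), a scale chosen because mitochondrial genes took 5.59% to 67.6% of the reads on genes in grafts and 2.96% to 9.18% before grafting. Over all reads of a library the mitochondrial share was 31.4% ± 18.6 (SD, n = 7) in grafts and 4.48% ± 1.99 (n = 8) before, a difference of 26.9 percentage points (two-sided exact permutation test, p = 0.000622). The single graft of Experiment 1, from mouse 4 and with the most cells of the 7, lay at 3.85%, within the range before grafting, and the 6 grafts of Experiment 2 lay between 15.9% and 59.6%. The 3 Experiment 1 grafts that the quality table does not pass stood at 4.58%, 5.39% and 4.91%. The pre-graft libraries of Experiment 1 that were used stood at 2.91%, 3.04% and 3.64%, below all grafts of that experiment. The share was thus slightly larger in Experiment 1 grafts and much larger in Experiment 2 grafts. Reads on non-mitochondrial genes numbered 517189 to 2575707 in grafts and 2137185 to 3786642 before. Genes with at least 1 read numbered 11749 ± 1365 in grafts and 13629.5 ± 320.2 before (exact permutation test, p = 0.000466). At an equal depth of 517189 reads grafts still showed 968 fewer genes (exact permutation test, p = 0.0359, with the thinning added after the data were seen). The plot of library values shows that the mitochondrial share, the gene number and the first principal component all separate most grafts from the rest, with the Experiment 1 graft nearest to the pre-graft libraries on the first component.

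**Figure D1:**
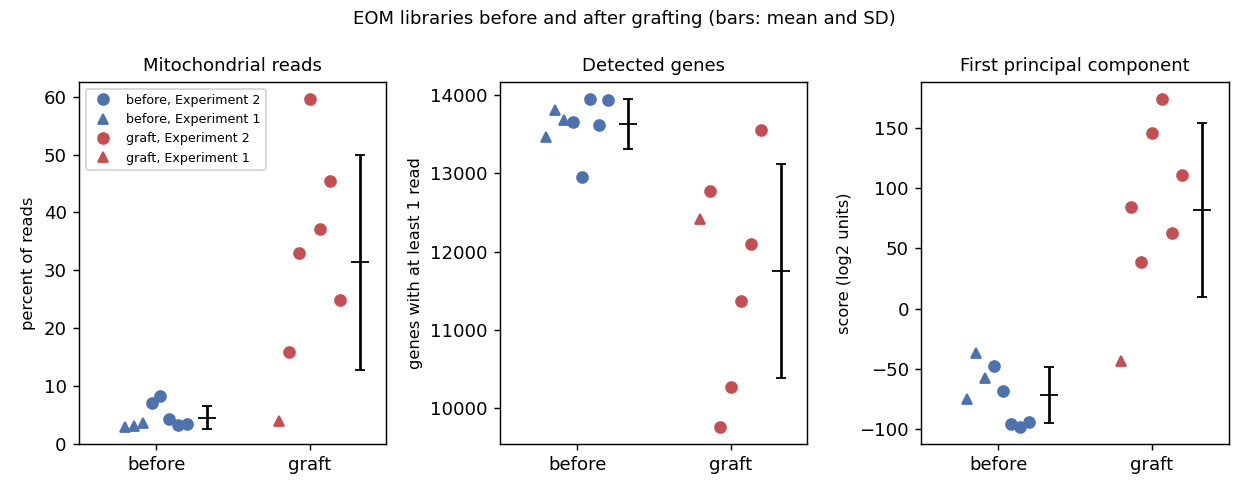
Each point is one of the 15 EOM libraries, blue before grafting and red after, circles for Experiment 2 and triangles for Experiment 1, with the mean and SD of each group in black. The left panel gives the percent of reads in mitochondrial genes, the middle panel the number of genes with at least 1 read, and the right panel the score on the first principal component (31.2% of the variance), on which the Experiment 1 graft scored -43.6 against a range of -98.2 to -36.8 before grafting.

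Of 12869 genes tested, 750 were higher after grafting (5.83%) and 932 lower (7.24%), where a call needed an adjusted p under 0.05 in limma and a change of more than 2-fold. The median change of all genes tested was -0.42 on the log2 scale, so that a gene at 0 stood above most others. Centring each library on its median left 873 higher and 654 lower, and edgeR on reads recovered from the deposited values called 930 higher and 358 lower, which moved the share of higher calls from 44.6% to 57.2% and 72.2%. Genes called in the same direction in all 3 analyses numbered 653 higher (5.07%) and 265 lower (2.06%). In 133 genes (1.03%) every graft lay above every pre-graft library and in 251 (1.95%) every graft lay below. With the donor as a block, which rests on the 6 donors with both steps, 180 genes were called higher and 157 lower, and a second p (with the donor block) stands below wherever the block changed the call of a named gene. With each library's mitochondrial percentage as a covariate, 59 and 123 were called. That percentage was at most 8.16% before grafting and at least 15.9% in the 6 grafts of Experiment 2. The covariate and grafting can thus hardly be told apart, here and in the lists below. The 5.83% and 7.24% of all genes stand beside every count of calls in a gene list below.

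Markers of other cell types that the sorted fraction could hold were examined first, and levels of single genes are given as the median over libraries with the lowest and highest library in brackets. Endothelial markers rose, with 13 of 16 members called higher, beside 5.83% of all genes, and a median change of 5.36 beside -0.42 for all genes tested. With the donor as a block 6 of them were called and with the mitochondrial percentage as a covariate 0. Their summed level was 138 to 802 RPM before grafting and 248 to 11594 RPM in grafts. The Experiment 1 graft stood at 248 RPM, inside the pre-graft range, and all 6 grafts of Experiment 2 lay above that range. Cdh5, the adherens junction cadherin of vessels, was at 0 RPM [0 to 32.8] before and 262 RPM [20.6 to 590.2] after (log2 difference 7.43 ± 1.10, adjusted p = 0.000335), with a difference of 2.52 within Experiment 1 and 9.01 within Experiment 2. Kdr, a receptor for vascular endothelial growth factor, went from 1.96 RPM [0 to 28.5] to 242 RPM [8.54 to 603] (log2 difference 6.41 ± 1.15, adjusted p = 0.00148). Egfl7 (5.49, adjusted p = 0.000589) and Eng, a co-receptor for TGF-beta (2.88, adjusted p = 0.00178), also rose. The 16 endothelial markers all had a read in some library before grafting, and 11 of them had one in every graft.

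Other marker lists moved in fewer libraries, and their calls stand beside 5.83% of all genes called higher and 7.24% called lower. Erythroid markers summed to 0 to 1753 RPM before and 0 to 6232 RPM after, with 2547 RPM or more in 5 grafts and 1.16 RPM or less in 2. Of 3 members tested only the alpha globin gene Hba-a2 was called (6.03, adjusted p = 0.0386, 0.21 with the donor block). Its reads cannot be separated with certainty from those of its near copy Hba-a1 (5.72, adjusted p = 0.124). Macrophage markers reached 2311 RPM in the graft of mouse 5 of Experiment 2 and 1907 RPM in the pre-graft library of mouse 2 of Experiment 2, and at most 246 RPM elsewhere. Of 9 macrophage markers tested, Itgam was called higher (2.36, adjusted p = 0.0382, 0.185 with the donor block). It had at most 9 reads in any graft and 8 in the 1 pre-graft library that read it. A library without a read stands 1.48 higher on average in grafts, which were shallower, so this call rests in part on that value. Fcer1g (3.03, adjusted p = 0.0895), Lyz2 (2.90, adjusted p = 0.283) and Cd68 (-0.92, adjusted p = 0.333) did not pass. Lymphocyte markers were low, at most 92.1 RPM in sum, and neither Lck (1.72, adjusted p = 0.234) nor Cd79a (-0.88, adjusted p = 0.47) passed in limma or edgeR. DESeq2 called 1 of the 2 tested and 0 had an unadjusted p under 0.05 in limma. Among 14 fibro-adipogenic markers Ly6a, also carried by endothelial cells, was called higher (5.72, adjusted p = 0.0285, 0.164 with the donor block), with 8.93 RPM in the Experiment 1 graft. The matrix genes Dpt (-1.21, adjusted p = 0.0524), Col1a2 (1.88, adjusted p = 0.0822, 0.0299 with the donor block) and Gsn (-1.04, adjusted p = 0.085) did not pass. The graft of mouse 1 of Experiment 2 held the highest fibro-adipogenic sum, 18701 RPM, against 2557 to 5099.6 RPM before grafting.

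**Figure D2:**
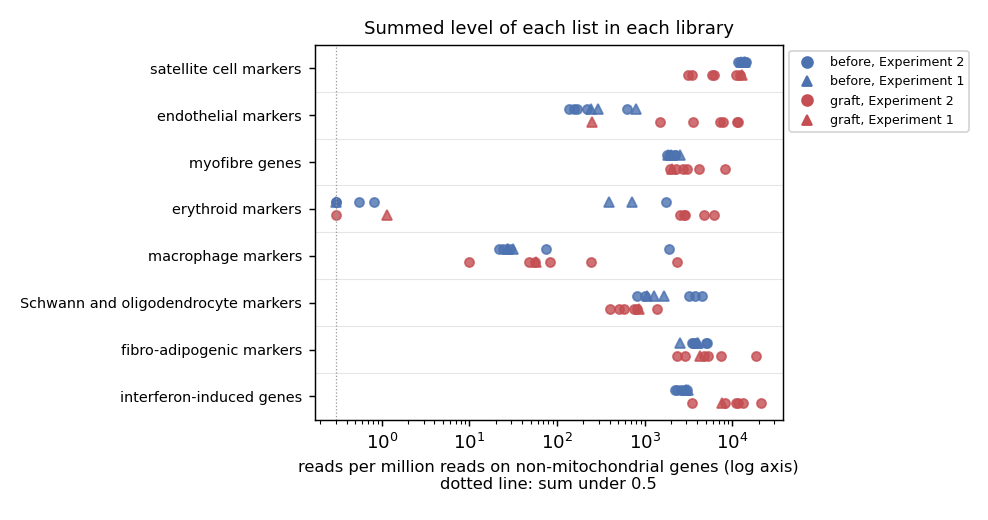
Each row is a gene list and each point its summed level in one library, in RPM on a log axis, with symbols as in the plot of library values and sums under 0.5 placed on the dotted line. Endothelial sums of the 6 Experiment 2 grafts lie above all pre-graft sums and the Experiment 1 graft lies among them, while interferon-induced sums of all 7 grafts lie above all 8 pre-graft sums.

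Satellite cell markers were present in every library and lower in most grafts. All 14 were read in all 8 pre-graft libraries and 11 in all 7 grafts, with a summed level of 11633 to 14295 RPM before and 3150.0 to 12826 RPM after. Cdh15, Chrdl2 and Msc were each without a read in 1 of the 7 grafts. Of the 14, 6 were called lower, beside 7.24% of all genes (median -1.30, beside -0.42 for all genes). EdgeR called 2 lower, the donor block 1 and the mitochondrial covariate 1. Within Experiment 1 the median difference was 0.18 and within Experiment 2 -1.62. In bulk samples fewer cells of a type and less RNA per cell cannot be told apart, and the grafts of mice 3 and 4 of Experiment 2, with the lowest satellite sums, had the highest endothelial sums. The part of other cells in these differences was not tested.

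Chrdl2, which encodes a secreted chordin-like protein that binds BMPs, fell in all 7 grafts, from 612 RPM [459 to 761] to 28.4 RPM [0 to 104.98] (log2 difference -4.95 ± 0.69, adjusted p = 0.000197), and the Experiment 1 graft held 45.8 RPM. Myf5, the early myogenic determination factor, was at 551 RPM [345 to 759] before and 178 RPM [29.8 to 541] after (log2 difference -1.66 ± 0.47, adjusted p = 0.0228, 0.0749 with the donor block). The groups overlapped, the Experiment 1 graft reaching 541 RPM. Msc, a basic helix-loop-helix repressor, fell (-2.87, adjusted p = 0.0171, 0.0896 with the donor block), as did the receptor Fgfr4 (-2.26, adjusted p = 0.0227, 0.0842 with the donor block) and Calcr, the calcitonin receptor that holds MuSCs in quiescence (-2.04, adjusted p = 0.0459, 0.136 with the donor block). Pax7, the transcription factor that defines these cells and whose regulatory sequence drives the GFP used for sorting, was at 262 RPM [204 to 419.9] before and 230.1 RPM [22.4 to 427] after, which did not pass (log2 difference -0.87 ± 0.47, adjusted p = 0.199). Myod1, a determination factor induced on activation, was at 167 RPM [86.6 to 311] before and 153 RPM [12.5 to 367] after, with overlap (log2 difference -0.37, adjusted p = 0.66). Myog, which drives terminal differentiation, had reads in 4 pre-graft libraries and in the Experiment 1 graft alone among grafts, at 76.9 RPM (0.32, adjusted p = 0.873).

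Quiescence genes did not move as a group, with 2 of 17 called higher and 2 lower (median -0.24), beside 5.83% and 7.24% of all genes. Heyl, a Notch target kept high in quiescent MuSCs, fell from 177 RPM [111 to 233] to 65.1 RPM [20.6 to 139] (log2 difference -1.55 ± 0.31, adjusted p = 0.00348). Cdkn1c, the cyclin-dependent kinase inhibitor p57, rose from 93.3 RPM [57.6 to 185] to 269 RPM [166 to 753] (log2 difference 1.56 ± 0.32, adjusted p = 0.00382). The growth factor gene Pdgfd rose (4.45, adjusted p = 0.0155, 0.133 with the donor block) with a difference of 5.33 within Experiment 2 and -1.17 within Experiment 1.

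Most fibre genes were read at higher levels after grafting. Of 18 members tested 13 were called higher, beside 5.83% of all genes (median 4.29), 7 with the donor as a block and 0 with the mitochondrial percentage as a covariate. Their summed level overlapped between groups, at 1776 to 2510 RPM before and 1937 to 8154 RPM after. The Experiment 1 graft (2034 RPM) and those of mice 4 (2266 RPM) and 6 (1937 RPM) of Experiment 2 lay inside the pre-graft range. Des, also a satellite cell marker, held most reads of this list before grafting, 41959 in all, with Tpm1 next at 3122. It had 11404 reads in grafts, so these sums follow Des and do not show that other fibre genes were unchanged. Myl1, a fast myosin light chain, was at 2.28 RPM [0 to 4.66] before and 90.4 RPM [19.8 to 448] after (log2 difference 5.69 ± 0.82, adjusted p = 0.000249), and every graft lay above every pre-graft library. The giant sarcomere protein gene Ttn (4.58, adjusted p = 0.000253) and the fast troponin C gene Tnnc2 (5.17, adjusted p = 0.000795) also did not overlap between groups, and the calcium buffer gene Pvalb rose with an overlap (5.55, adjusted p = 0.000468). Within Experiment 1 the difference was 3.44 for Myl1, 2.44 for Ttn and 3.96 for Tnnc2, although the list's median difference there was 0.23. Acta1, skeletal alpha actin, was at 152 RPM [7.38 to 1107] in grafts (4.64, adjusted p = 0.00338). Ckm, the muscle creatine kinase, stood at 88.9 RPM [0 to 594] (5.05, adjusted p = 0.00788), and the transcription factor gene Mef2c at 70.3 RPM [3.03 to 347] (5.44, adjusted p = 0.00386, 0.0985 with the donor block). Sln, which encodes the calcium pump inhibitor sarcolipin, moved the other way. It was read in all 8 pre-graft libraries at 48.0 RPM [27.957 to 84.5] and in 1 of 7 grafts, at 6.25 RPM (log2 difference -5.35 ± 0.62, adjusted p = 4.65e-05).

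Cell cycle genes gave no common direction, with 2 of 17 higher and 2 lower, beside 5.83% and 7.24% of all genes. The cyclin D genes split. Ccnd1 rose from 18.8 RPM [6.50 to 37.5] to 68.2 RPM [15.5 to 119.5] (log2 difference 1.79 ± 0.47, adjusted p = 0.0173, 0.119 with the donor block) and Ccnd3 fell (-1.18, adjusted p = 0.0219). Ccnd2 was called higher (2.58, adjusted p = 0.034, 0.151 with the donor block) with a difference of 3.52 in Experiment 2 and -3.07 in Experiment 1. Mcm5, part of the replicative helicase, was called lower (-2.81, adjusted p = 0.023, 0.169 with the donor block) with opposite differences in Experiment 1 (2.19) and Experiment 2 (-4.05). Of 10 genes of activation and differentiation 5 were called higher and 2 lower, beside 5.83% and 7.24% of all genes. The higher ones include Acta1 and Ckm, which the fibre list also holds. Cdkn1a, the cell cycle inhibitor p21, rose in every graft, from 563 RPM [408 to 818] to 2399.5 RPM [931 to 3645] (log2 difference 1.87 ± 0.29, adjusted p = 0.000409).

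Interferon-induced genes rose together, with 28 of 45 tested called higher, beside 5.83% of all genes, and none lower by limma, edgeR or DESeq2. Their median change was 2.47 (2.64 after centring), and 16 members did not overlap between groups, beside 1.03% of all genes. The summed level was 2216 to 3108 RPM before and 3497 to 21532 RPM in grafts. All 7 grafts were above all 8 pre-graft libraries, the lowest being the graft of mouse 2 of Experiment 2 and the highest that of mouse 4 of Experiment 2. The Experiment 1 graft, a single library whose endothelial sum and mitochondrial share lay within the range of the 8 pre-graft libraries, held 7639 RPM. The list's median difference was 1.91 within Experiment 1 and 2.38 within Experiment 2. The part of other cells and of the mitochondrial share in this rise was not tested. With the donor as a block 18 members were called and with the mitochondrial percentage as a covariate 11.

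Rtp4, an interferon-induced chaperone of membrane receptors at chr16:23609919-23614222 (GRCm38, as are all gene positions here), had the largest moderated t of all higher genes. It was at 34.0 RPM [18.3 to 36.9] before and 382 RPM [177 to 481] after (log2 difference 3.55 ± 0.25, adjusted p = 2.47e-07), and at 392 RPM in the Experiment 1 graft. Ifit1, which binds foreign RNA, went from 56.2 RPM [15.8 to 102] to 661 RPM [242 to 1967] (log2 difference 3.85 ± 0.40, adjusted p = 1.42e-05). Isg15, a ubiquitin-like modifier, went from 44.2 RPM [13.3 to 59.0] to 514 RPM [147 to 941] (log2 difference 3.58 ± 0.40, adjusted p = 3.18e-05). Irf7, the transcription factor that amplifies the interferon response, went from 70.4 RPM [20.9 to 107] to 353 RPM [158 to 491] (log2 difference 2.50 ± 0.33, adjusted p = 0.000157). Trim25, a ubiquitin ligase of the RNA-sensing pathway that was not on the interferon list, rose from 50.5 RPM [33.3 to 119] to 320.2 RPM [245 to 569] (log2 difference 2.61 ± 0.27, adjusted p = 1.54e-05). None of these 5, which were chosen by their moderated t in these libraries, overlapped between groups, and each was called with the donor as a block. The change in TA cells grafted into TA did not differ past the threshold for any of them (adjusted p for the difference 0.903, 0.812, 0.961, 0.985 and 0.981).

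Promoters of such genes carry the interferon-stimulated response element, to which complexes of STAT and IRF factors bind. RefSeq promoter windows (GRCm38.p6, 250 bases before to 50 after a start) were searched on both strands for the letters GAAANNGAAA, which overlap the GAAA repeats of IRF motifs. Windows were found for 20 of the 28 called members, too few for a comparison of shares, and 13 of these 20 held the motif, as did 3.82% of the 8944 genes tested that had a window and 3.44% of all 32851 windows. Below are stretches of 5 of these promoters, shown because their genes rose together in grafts, 5′ to 3′ in the direction of the gene and with the motif letters of either strand in capitals.
Ifit1, chr19:34640765-34640833, plus strand: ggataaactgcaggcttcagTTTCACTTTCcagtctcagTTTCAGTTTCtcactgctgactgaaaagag
Isg15, chr4:156200855-156200916, minus strand: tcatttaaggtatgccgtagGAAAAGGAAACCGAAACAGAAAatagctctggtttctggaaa
Rsad2, chr12:26456543-26456592, minus strand: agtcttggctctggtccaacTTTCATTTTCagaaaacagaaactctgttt
Bst2, chr8:71537567-71537622, minus strand: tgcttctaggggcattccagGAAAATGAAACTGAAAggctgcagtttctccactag
Oas1a, chr5:120907510-120907565, minus strand: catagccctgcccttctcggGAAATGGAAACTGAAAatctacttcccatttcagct
The first match begins 104 bases before the start site in Ifit1, which holds a separate second match, 120 in Rsad2, 130 in Bst2, 78 in Isg15 and 20 in Oas1a. In Isg15, Bst2 and Oas1a the capitals run on because matches overlap. Beside these sequences, Rsad2, whose product viperin blocks viral replication, rose by 4.73 on the log2 scale (adjusted p = 0.000455), Bst2, the virus-tethering protein, by 3.22 (adjusted p = 0.00103), and Oas1a, a sensor of double-stranded RNA, by 4.67 (adjusted p = 0.00934). Oas1a belongs to a family of near copies, so its reads are uncertain.

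Antigen presentation genes rose in part. Of 20 MHC class I genes 5 were called higher, beside 5.83% of all genes (median 0.69, beside -0.42 for all genes). They were H2-Q6 (4.67, adjusted p = 0.00919, 0.0767 with the donor block), H2-Q7 (3.40, adjusted p = 0.0245, 0.0616 with the donor block), H2-T23 (2.38, adjusted p = 0.0118, 0.0717 with the donor block), H2-T22 (1.31, adjusted p = 0.0483, 0.168 with the donor block) and the immunoproteasome subunit gene Psmb8 (1.62, adjusted p = 0.0433, 0.127 with the donor block). The H2-Q genes are near copies of each other, so their reads are uncertain. B2m, the light chain shared by these molecules, was at 1513 RPM [1311 to 1654] before and 3104 RPM [1563 to 4659] after, under the 2-fold limit (log2 difference 0.96 ± 0.18, adjusted p = 0.00217). Among 17 complement genes C2 was called higher (3.67, adjusted p = 0.0235) and the inhibitor gene Serping1 lower (-1.17, adjusted p = 0.0276, 0.121 with the donor block), whereas C1ra (-2.05, adjusted p = 0.068) did not pass. These 2 calls stand beside 5.83% of all genes called higher and 7.24% called lower.

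Beyond interferon-induced genes, the 12 higher genes with the largest moderated t among those with a mean of at least log2 RPM 3 held genes of other kinds. Genes under this level limit, such as Mnda (adjusted p = 4.65e-05), ranked among them and are left out. S100a6, a calcium-binding protein gene, rose from 95.0 RPM [71.1 to 147] to 704 RPM [342 to 1075] (log2 difference 2.72 ± 0.24, adjusted p = 2.08e-06). Cst3, which encodes the protease inhibitor cystatin C, rose from 489 RPM [399 to 767] to 1654 RPM [1226 to 2569.7] (log2 difference 1.83 ± 0.18, adjusted p = 8.18e-06). Dusp5, a nuclear phosphatase that inactivates ERK, rose from 36.6 RPM [28.6 to 57.6] to 213 RPM [147 to 322] (log2 difference 2.38 ± 0.25, adjusted p = 1.42e-05). In these 3 genes all 7 grafts lay above all pre-graft libraries, and the difference within Experiment 1 was 3.28, 1.26 and 2.07. Cxcl2, a chemokine that draws neutrophils, was at most 5.55 RPM before grafting and at 144 RPM [33.001 to 342] after (log2 difference 5.29 ± 0.65, adjusted p = 8.23e-05). Fam129b (2.57, adjusted p = 1.42e-05), Lrrfip1 (1.95, adjusted p = 7.05e-05) and Ece1, the endothelin-converting enzyme (2.42, adjusted p = 0.000138), completed the 12, again with no overlap between groups. The 12 were chosen by moderated t in these same libraries, so this lack of overlap follows in part from the choice.

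**Figure D3:**
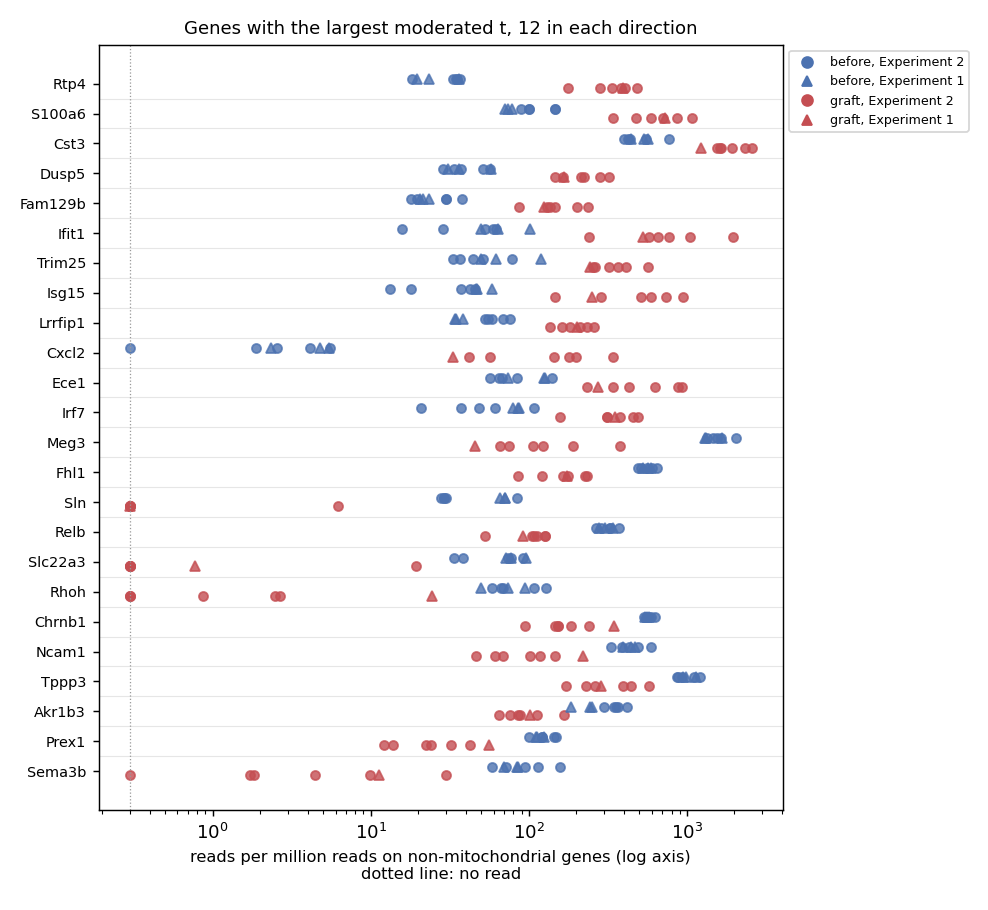
Rows give the 12 higher and 12 lower genes with the largest moderated t among genes called in 3 analyses, with a mean of at least log2 RPM 3 and predicted genes left out, and points give their level in each of the 15 libraries in RPM on a log axis, symbols as before, with libraries without a read on the dotted line. The red and blue points of each row do not overlap, and the Experiment 1 graft (red triangle) lies on the side of the other grafts in all 24 rows. The genes were chosen by their difference in these same 15 libraries, so both traits follow in part from the choice.

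Among lower genes with a mean of at least log2 RPM 3, predicted genes left out, the largest moderated t belonged to Meg3, an imprinted long non-coding RNA at chr12:109541001-109571726. It was at 1508 RPM [1305 to 2055] before grafting and at 106 RPM [45.4 to 379] after (log2 difference -3.77 ± 0.33, adjusted p = 2.05e-06). Outside these limits the predicted gene Gm13373, read in all 8 pre-graft libraries and in no graft (adjusted p = 1.03e-06), had a larger one, and Klhl30, under the level limit, came next after Meg3 (adjusted p = 2.05e-06). The lowest of the 7 grafts for Meg3 was that of Experiment 1, at 45.4 RPM, where satellite cell markers summed to 12826 RPM, and the change in TA cells did not differ past the threshold (adjusted p = 0.993). The part of other cells in the fall of Meg3 was not tested. Fhl1, a LIM-domain protein of striated muscle, fell from 565 RPM [493 to 645] to 175 RPM [85.6 to 234] (log2 difference -1.80 ± 0.20, adjusted p = 2.41e-05). Chrnb1, the beta subunit of the muscle acetylcholine receptor, fell from 567 RPM [538 to 628] to 153 RPM [94.6 to 346] (log2 difference -1.70 ± 0.21, adjusted p = 0.000101). Relb, a subunit of the transcription factor NF-kappaB, fell from 315 RPM [268 to 372] to 108 RPM [52.9 to 127] (log2 difference -1.64 ± 0.19, adjusted p = 5.95e-05).

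Slc22a3, a transporter of organic cations, was read in all pre-graft libraries at 75.5 RPM [33.5 to 96.4] and in 2 grafts, at 0.78 and 19.3 RPM, with a log2 difference of -5.63 ± 0.67 (adjusted p = 5.95e-05) that rests in part on the 0.9 of a read given to such libraries. Rhoh, an atypical small GTPase, was at 71.1 RPM [50.0 to 129] before and 0.868 RPM [0 to 24.5] after (log2 difference -5.21, adjusted p = 8.23e-05). Tppp3 (-1.68, adjusted p = 0.00013), the aldose reductase gene Akr1b3 (-1.65, adjusted p = 0.000175) and Prex1, an activator of Rac (-2.26, adjusted p = 0.000175), completed the lower 12 together with Sln, Ncam1 and Sema3b. Ncam1, a neural cell adhesion molecule also found on myogenic cells, fell from 439.6 RPM [332 to 595] to 102.55 RPM [46.5 to 221] (log2 difference -2.19 ± 0.27, adjusted p = 0.000101).

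Of 13 glial markers 5 were called lower in grafts, beside 7.24% of all genes (median -1.65). Their summed level overlapped between groups, at 820.0 to 4550.2 RPM before and 402 to 1373 RPM after. Besides Ncam1 these included Mobp, a myelin gene (log2 difference -5.63 ± 1.08, adjusted p = 0.0024, 0.0573 with the donor block), Egr2, a regulator of myelination (-2.72, adjusted p = 0.000795), and Mal (-3.31, adjusted p = 0.0072, 0.086 with the donor block). Mobp varied among pre-graft libraries, 96.8 RPM [2.77 to 951], and was read in 1 graft of 7, at 13.7 RPM, so the groups overlapped. With the donor as a block 2 of the 5 were called, Ncam1 and Egr2.

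Regulators of regional identity fell more often than they rose, as the plot of identity genes shows. Of 10 extraocular regulators tested 4 were called lower, beside 7.24% of all genes, and 1 higher (median -2.02). The summed level was 344 to 439 RPM before and 109 to 349 RPM after, with the Experiment 1 graft at 349 RPM. Lmx1a, a LIM homeobox factor at chr1:167689239-167848741, was read in all 8 pre-graft libraries at 28.4 RPM [15.0 to 44.7] and in 2 grafts, at 1.16 and 5.21 RPM, with no read in the other 5 (log2 difference -4.40 ± 0.55, adjusted p = 0.000101). The pre-graft and graft ranges did not overlap, and the call was made in every one of the 18 alternative analyses. Eya2, a transcriptional cofactor, fell from 89.8 RPM [69.6 to 141] to 19.3 RPM [0 to 44.6] (log2 difference -3.48 ± 0.73, adjusted p = 0.00429, 0.0597 with the donor block). The homeobox genes Barx2, from 80.2 RPM [51.1 to 147] to 18.6 RPM [0 to 71.5] (log2 difference -3.07 ± 0.77, adjusted p = 0.0126, 0.0684 with the donor block), and Pitx3, from 8.10 RPM [4.26 to 15.2] to 0 RPM [0 to 14.8] (log2 difference -2.29 ± 0.67, adjusted p = 0.0272, 0.16 with the donor block), fell as well. Under the donor block Lmx1a alone of these 4 was called, with adjusted p = 0.0187, and edgeR called 3 members lower. Msx1, a homeobox repressor of differentiation, rose from 15.3 RPM [9.41 to 24.8] to 51.0 RPM [19.3 to 90.9] (1.62, adjusted p = 0.0136, 0.109 with the donor block). Alx4, a homeobox factor of craniofacial mesenchyme, was at 27.968 RPM [18.6 to 51.9] before and 15.5 RPM [0 to 38.6] after and did not pass (log2 difference -1.41 ± 0.66, adjusted p = 0.144).

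Regulators of limb and trunk muscle were little read. Lbx1, which guides limb muscle precursors, had no read in any of the 15 EOM libraries, and a count of 0 allows up to 5.80 RPM in the shallowest graft and 1.40 RPM in the shallowest pre-graft library, counting error only. Pax3, the trunk and limb counterpart of Pax7, was read in 1 pre-graft library (10.8 RPM) and in 2 grafts (at most 15.5 RPM). Tbx1, a regulator of branchial muscle, was read in 2 pre-graft libraries (at most 2.12 RPM) and in 1 graft (8.72 RPM). Of 5 members tested Meox2 was called higher (4.31, adjusted p = 0.0252, 0.219 with the donor block), with a difference of -1.53 within Experiment 1 and 5.55 within Experiment 2, and Tbx15 lower (-2.35, adjusted p = 0.03, 0.144 with the donor block). Six4 (0.50, adjusted p = 0.614) did not pass. Calls in this list stand beside 5.83% of all genes called higher and 7.24% called lower.

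Hox genes of clusters A and C were nearly unread before grafting and read at a low level in most grafts. Of 20 genes, 3 had a read in some pre-graft library and 13 in some graft, and their sum was 0 to 1.87 RPM before and 0.776 to 83.4 RPM after, with 0.776 RPM in the Experiment 1 graft. No member was read in every graft. The share of all genes that were read in grafts alone was not tallied, so the counts of 3 and 13 have no background beside them. Endothelial markers moved with them, as the 3 grafts of lowest Hox sum (0.776, 14.6 and 25.1 RPM) were also the 3 of lowest endothelial sum (248, 1489 and 3523 RPM). In the other 4 grafts Hox sums were 56.8 to 83.4 RPM and endothelial sums 7209 to 11594 RPM, and the part of other cells was not tested. Hoxa5 was the one member that passed the filter on low values. It did so through grafts alone, where it was high, so its p below is not independent of that selection. It was read in 1 pre-graft library at 1.11 RPM and in 5 grafts, 11.4 RPM [0 to 56.0] over all 7 (log2 difference 4.18 ± 0.94, adjusted p = 0.00667, 0.0573 with the donor block), and was at 0.78 RPM in the Experiment 1 graft. Hoxa10 and Hoxc11 had no read in any EOM library, Hoxc10 had 1 read in 1 graft, and Hoxc9 was read in 1 graft at 8.50 RPM.

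Thyroid hormone genes, which tune fibre type and MuSC state, had 2 of 8 called lower, beside 7.24% of all genes. Tshr, the thyrotropin receptor, fell in every graft, from 419 RPM [294 to 475] to 45.5 RPM [0 to 176] (log2 difference -3.53 ± 0.72, adjusted p = 0.00348). The transporter gene Slc16a10 fell (-1.89, adjusted p = 0.0331, 0.121 with the donor block) with a difference of 0.08 within Experiment 1. Dio2, the deiodinase that activates thyroid hormone, was at 678 RPM [387 to 994] before and 259 RPM [0 to 586] after and did not pass (log2 difference -2.51 ± 0.98, adjusted p = 0.0851).

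**Figure D4:**
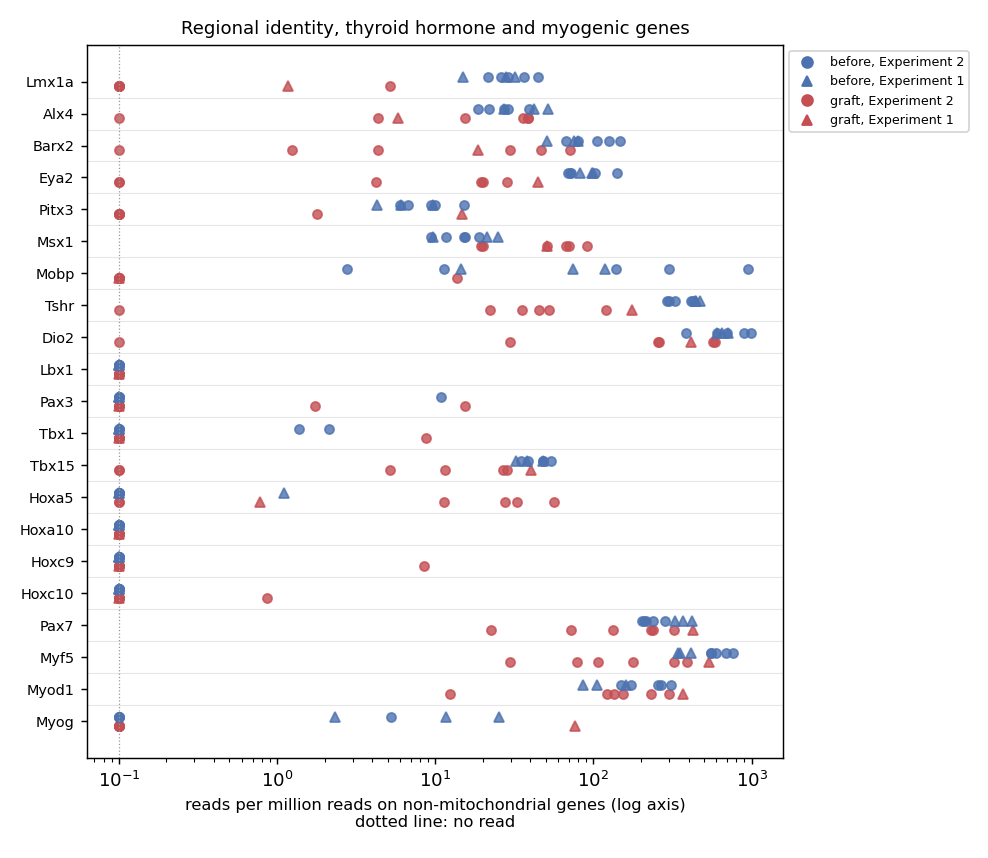
Rows give regional regulators, thyroid hormone genes, positional genes and myogenic factors, and points give their level in each EOM library in RPM on a log axis, symbols as before, with libraries without a read on the dotted line. Lmx1a, Eya2 and Tshr show no overlap between red and blue, and Lbx1 and Hoxa10 lie wholly on the line of no read.

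Whether the EOM change differed from that of TA cells was tested with 7 TA grafts and 8 TA pre-graft libraries, and 23 of 15015 genes (0.153%) passed, with 1184 at an unadjusted p under 0.05. The genes fall apart by where their reads were. Lmx1a (difference between the changes -5.15 ± 0.76, adjusted p = 0.000706) and Mobp (-7.02 ± 1.33, adjusted p = 0.0112) fell in EOM cells and had no read in any TA library before grafting. For Lbx1 (5.51 ± 0.76, adjusted p = 0.000352), Hoxa10 (4.11, adjusted p = 0.0369), Hoxc10 (5.15, adjusted p = 0.0112) and Hoxc11 (4.39, adjusted p = 0.00265) the reads were in TA cells, where the change was -4.03, -2.63, -3.65 and -2.91, and EOM cells had at most 1 read in all. The value of a library without a read is itself 1.48 higher on average in EOM grafts, because they were shallower, so the positive sign of these 4 differences is no rise in EOM cells.

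Among genes read in every EOM library the interaction was carried by smaller changes. Ccnd1 rose in EOM cells and changed by -1.33 in TA cells (difference 3.12 ± 0.61, adjusted p = 0.013), and Dusp5 rose in EOM cells beside -0.15 in TA cells (difference 2.53, adjusted p = 0.0343). Cd34, a sialomucin of quiescent MuSCs that endothelial cells also carry, was at 391 RPM [329 to 419.5] in EOM cells before and 250.0 RPM [62.5 to 362] after, without a call (log2 difference -0.80 ± 0.28, adjusted p = 0.0546), and changed by 1.01 in TA cells (difference -1.81, adjusted p = 0.0126). Pdlim7 (-1.63, adjusted p = 0.0141) and Socs2, an inhibitor of cytokine signalling (-1.40, adjusted p = 0.0399), differed in the same direction. Outside these genes Hoxc9 (5.03, adjusted p = 0.0126) also passed, with reads in all 8 TA pre-graft libraries and in 1 EOM graft. Its change was -2.99 in TA cells, and the rest lies largely in the value of EOM grafts without a read, so its sign is no general rise in EOM cells. Gm13373, Klhl30, Mnda, Hoxc9, Hoxc11, Cd34, Pdlim7 and Socs2 were chosen after their values were seen. In Experiment 2 alone 5 genes passed.

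Genes of the matrix around MuSCs changed member by member. Among 23 collagen genes 4 were higher and 4 lower, beside 5.83% and 7.24% of all genes. The basement membrane chain Col4a2 rose from 56.3 RPM [35.1 to 112] to 314 RPM [101 to 687] (log2 difference 2.45 ± 0.34, adjusted p = 0.000175) and Col4a1 rose with it (1.53, adjusted p = 0.00332, 0.052 with the donor block). Col8a1, a short-chain collagen gene of vessel walls and basement membranes, rose in every graft, from 12.7 RPM [2.81 to 30.5] to 192 RPM [54.8 to 2162] (log2 difference 4.43 ± 0.66, adjusted p = 0.000341). Within Experiment 1 Col8a1 differed by 6.14. Col6a1, a chain of the microfibrillar collagen of the MuSC niche, fell in every graft, from 366 RPM [257 to 449.6] to 133 RPM [54.0 to 198] (log2 difference -1.49 ± 0.24, adjusted p = 0.00069).

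Of 27 laminin, fibronectin and niche receptor genes 3 were higher, beside 5.83% of all genes. Cdh2, the N-cadherin that links MuSCs to fibres, was at most 2.71 RPM before grafting and at 21.2 RPM [7.76 to 49.2] after (log2 difference 5.15 ± 0.66, adjusted p = 0.000118), with no overlap. Nid1, a linker of laminin and collagen networks, rose (2.43, adjusted p = 0.00166), as did the laminin receptor subunit Itga6 (5.36, adjusted p = 0.0139, 0.118 with the donor block), for which the difference within Experiment 1 was -2.80. The perlecan gene Hspg2 did not pass the 2-fold limit (0.79, adjusted p = 0.0186). Among 29 microfibril and small proteoglycan genes 4 were higher and 1 lower, beside 5.83% and 7.24% of all genes. The higher ones were Thbs4 (5.31, adjusted p = 0.00526, 0.0594 with the donor block), Fmod (5.20, adjusted p = 0.0179, 0.0805 with the donor block), Aspn (5.13, adjusted p = 0.0187, 0.0829 with the donor block) and Thbs1 (1.58, adjusted p = 0.0434, 0.092 with the donor block), and the lower one Efemp2, a fibulin of elastic fibres (-1.83, adjusted p = 0.0191, 0.0708 with the donor block). Thbs4 and Fmod had no read in any Experiment 1 library used, so their difference of -0.07 there is only the value given without a read. Aspn differed by -4.56 in Experiment 1, where the graft had no read of it. Neither Ltbp4 (-0.65, adjusted p = 0.0131) nor Sparc (0.96, adjusted p = 0.0172) reached 2-fold.

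Signalling lists held calls in both directions, with medians between -0.33 and 0.05. Beside the 5.83% of all genes called higher and 7.24% called lower, the few calls in each describe single genes and not the lists. In the Notch list, 3 of 20 were higher and 3 lower. Mfng, which glycosylates Notch, rose from at most 1.69 RPM to 31.3 RPM [0 to 48.3] (4.45, adjusted p = 0.00463, 0.0573 with the donor block). The receptor gene Notch1 rose (1.07, adjusted p = 0.00707, 0.0812 with the donor block), Heyl fell as given above, and the ligand gene Jag1 stayed under the limit (0.94, adjusted p = 0.0169). In the FGF and IGF list 2 of 27 were higher and 3 lower. Igf1, the growth factor, fell in every graft, from 217 RPM [159 to 444] to 72.4 RPM [25.2 to 106] (log2 difference -2.09 ± 0.34, adjusted p = 0.000752). Igfbp4, which binds it, fell as well (-3.00, adjusted p = 0.0108). Igfbp7, a binding protein abundant in vessels, rose from 164 RPM [127 to 339] to 1841 RPM [338 to 2755] (log2 difference 2.83 ± 0.38, adjusted p = 0.000175). Dusp6, a feedback phosphatase of ERK, rose (3.20, adjusted p = 0.0188, 0.0647 with the donor block).

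In the TGF-beta and BMP list 1 of 31 was higher, Bmp5 (3.45, adjusted p = 0.0272, 0.193 with the donor block), and 2 were lower, the receptor genes Tgfbr3 (-1.16, adjusted p = 0.0175, 0.075 with the donor block) and Tgfbr1 (-1.38, adjusted p = 0.0484, 0.157 with the donor block). The receptor gene Acvr2b did not pass (-2.15, adjusted p = 0.0518). In the Wnt list the ligand genes Wnt4 (-2.83, adjusted p = 0.0388, 0.168 with the donor block) and Wnt11 (-2.88, adjusted p = 0.017, 0.119 with the donor block) fell, of 26 tested. The receptor genes Fzd5 (1.55, adjusted p = 0.035, 0.116 with the donor block) and Fzd6 (3.17, adjusted p = 0.0421, 0.12 with the donor block) rose, with Lrp5 under the limit (0.89, adjusted p = 0.0332). Axon guidance genes gave 5 higher and 4 lower of 31. The class 3 semaphorins Sema3b, from 85.0 RPM [58.8 to 158] to 4.47 RPM [0 to 29.9] (log2 difference -4.13 ± 0.57, adjusted p = 0.000175), and Sema3d, from 39.9 RPM [14.4 to 67.9] to 1.42 RPM [0 to 9.55] (log2 difference -4.15 ± 0.62, adjusted p = 0.000343), fell in every graft. The receptor genes Nrp1 (4.60, adjusted p = 0.00168, 0.0636 with the donor block) and Plxna4 (3.65, adjusted p = 0.00896) rose.

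Stress and early response genes showed no common rise. Of 25 early response genes 3 were higher and 2 lower (median 0.03), beside 5.83% and 7.24% of all genes. Klf6 rose in every graft, from 625 RPM [519.6 to 724] to 1575 RPM [984 to 1957] (log2 difference 1.18 ± 0.17, adjusted p = 0.000319). Nr4a2 (2.62, adjusted p = 0.00446) and Ier3 (1.60, adjusted p = 0.00596, 0.0865 with the donor block) rose, and Egr1 fell (-1.03, adjusted p = 0.00386) along with Egr2. Ier5 was higher in every graft but under 2-fold (0.90, adjusted p = 0.00151). None of 16 heat shock genes was called by limma, edgeR or DESeq2, with 1 higher and 4 lower at an unadjusted p under 0.05 in limma. The chaperone genes Hsp90ab1 (-0.49, adjusted p = 0.0106), Bag3 (-0.67, adjusted p = 0.0129) and Hspa5 (-0.54, adjusted p = 0.0207) were below 2-fold. Hmox1, the haem oxygenase, rose from 175 RPM [105.28 to 550.4] to 810.5 RPM [340.1 to 6488] (log2 difference 2.68 ± 0.54, adjusted p = 0.00335, 0.0533 with the donor block). With Gpx1 (1.77, adjusted p = 0.00085) and Nqo1 (3.21, adjusted p = 0.0396, 0.154 with the donor block) it made up the 3 called higher of 20 metallothionein and antioxidant genes, beside 5.83% of all genes. Gclc stayed just under 2-fold (0.97, adjusted p = 0.0472).

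Energy and translation genes differed by genome of origin, and their calls stand beside 5.83% of all genes called higher and 7.24% called lower. Of 13 mitochondrially encoded genes 12 were called higher per non-mitochondrial read (median 3.77), among them mt-Nd4 (4.33, adjusted p = 0.000175), mt-Nd2 (4.48, adjusted p = 0.000175), mt-Nd3 (3.98, adjusted p = 0.000308) and mt-Co1 (3.72, adjusted p = 0.000341). Their reads lie outside the denominator of this scale, so these calls largely restate the larger mitochondrial share given above. Nuclear genes of oxidative phosphorylation had a median of -0.14, with 1 of 77 called, the muscle isoform gene Cox6a2 (4.19, adjusted p = 0.00205, 0.0655 with the donor block). Atp5a1 (-0.73, adjusted p = 0.0199), Atp5d (-0.83, adjusted p = 0.0228) and Uqcrq (0.58, adjusted p = 0.0357) were under 2-fold. Of 19 glycolysis genes the muscle enolase gene Eno3 was called (2.20, adjusted p = 0.012, 0.0931 with the donor block), and Pkm (-0.82, adjusted p = 0.0224, 0.0443 with the donor block), Ldha (0.43, adjusted p = 0.102) and Pgam2 (2.46, adjusted p = 0.132) were not. Cytosolic ribosomal protein genes had a median of -0.68 beside -0.42 for all genes, with 74 of 76 below 0, beside 8677 of all 12869 genes tested. The 4 called lower were Rpl3 (-1.01, adjusted p = 0.000589, under 2-fold at -0.97 with the donor block), Rpl28 (-1.04, adjusted p = 0.00447, 0.0525 with the donor block), Rps26 (-1.13, adjusted p = 0.0118, 0.0884 with the donor block) and Rpl36a (-1.10, adjusted p = 0.0194, 0.121 with the donor block), with Rpl4 (-0.97, adjusted p = 0.0025) and Rpl10 (-0.77, adjusted p = 0.00528) under 2-fold. All 4 were under 2-fold after centring each library and in edgeR, and pseudogene copies share reads with such genes. Of 13 genes of DNA methylation and demethylation Gadd45g rose (1.89, adjusted p = 0.00492, 0.0842 with the donor block), Gadd45a fell (-1.23, adjusted p = 0.00209), and Tet2 (-0.66, adjusted p = 0.161) and Tet3 (0.86, adjusted p = 0.161) did not pass.

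The plot of list medians sets the 2 experiments side by side. Interferon-induced genes (1.91 and 2.38) and glial markers (-1.45 and -1.98) had medians of like sign and size in Experiment 1 and Experiment 2. Endothelial markers (-0.29 and 6.95), myofibre genes (0.23 and 4.62), mitochondrially encoded genes (0.59 and 4.15) and satellite cell markers (0.18 and -1.62) moved mainly in Experiment 2. Experiment 1 had a single graft among the libraries used, so its differences carry no test. Within these libraries that graft cannot be told apart from the experiment. Its low mitochondrial share was also seen in the Experiment 1 grafts that were left out (4.58% to 5.39%).

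**Figure D5:**
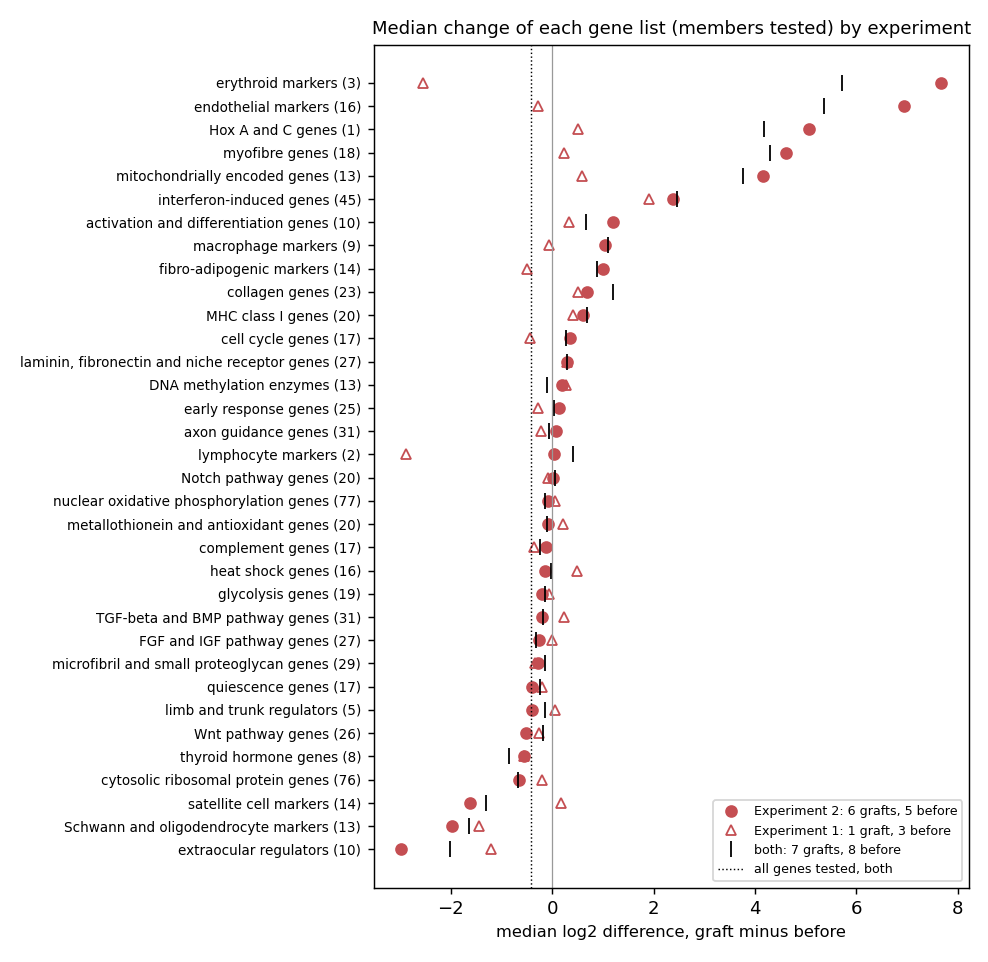
For each gene list, with the number of members tested in brackets, the plot gives the median log2 difference between grafts and pre-graft libraries in Experiment 2 (filled circles), Experiment 1 (open triangles) and both (black bars), with the median of all genes tested (-0.42) as a dotted line. Circle and triangle lie close together for interferon-induced genes and far apart for erythroid, endothelial, myofibre and mitochondrially encoded genes.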

How the data were processed

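RNA libraries of EOM cells were read from a table of log2 RPM per gene. The authors made these deposited log2 values in SeqMonk from reads trimmed with Trim Galore 0.4.4 and mapped with HISAT2 2.1.0 to the mouse genome GRCm38. The deposited library reports give total read counts and the percent of reads in genes, rRNA and mitochondrial genes. Of 10 grafts and 10 pre-graft EOM libraries, 3 and 2 were left out, as in the study. Whole reads were recovered from the deposited values, 99.9939% of them within 0.05 of a whole number, 66 repeated rows were dropped, and levels were rescaled to reads on non-mitochondrial genes, with 0.9 of a read for genes without one. Genes above log2 RPM 1 in at least 4 libraries were tested with limma 3.58.1 (R 4.3.3; trended variances, two-sided, Benjamini-Hochberg adjustment over all genes tested), and called at adjusted p under 0.05 and over 2-fold. The filter counted libraries of both groups together, so genes nearly unread before grafting passed it through grafts alone. Hoxa5, Bmp5, Thbs4 and Mfng were such genes. The alternatives were edgeR 4.0.16 (quasi-likelihood) and DESeq2 1.42.0 on recovered reads, other scales and filters, the donor block, experiment and mitochondrial covariates and other library sets. The scripts were tested on simulated data. Single values per library were compared by exact permutation tests. Named genes were the 12 of largest moderated t in each direction among genes called by limma, after centring and by edgeR (mean log2 RPM of at least 3), up to 4 members per list with the largest t, and a fixed set of regional and myogenic regulators; a few genes that this rule names are not reported here. Members and lists were chosen with earlier results of these data known.

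Labels tie each graft to its donor mouse, so libraries of the same animal are paired. Deviations of the 6 pairs from their group means correlated at -0.22 to 0.11. Promoter windows came from RefSeq (GRCm38.p6). Counting intervals cover counting error only. Depth ran from 5243925 to 10526422 reads in grafts and from 7838450 to 14402975 before grafting. The deposited bisulfite libraries were not used here.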

Additional observations from a re-analysis of the deposited data

Results flagged for a closer look

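In these results 1 library lay far from the others of its group (a gap to its nearest neighbour above Dixon's limit at the 95% level), which chance gives in about 1 of 20 groups, and 41 of 376 groups did so. Values are log2 RPM of the library concerned, with libraries without a read set to the value of 0.9 of a read. In the graft of mouse 4 of Experiment 1 this held for Aspn (-1.52), Ccnd2 (1.96), Cd34 (5.97), Ckm (-1.52), Itga6 (-0.36), Kdr (3.09), Mcm5 (4.70), Myog (6.26), Pdgfd (-1.52), Pitx3 (3.88), Plxna4 (-1.52) and Rhoh (4.61). In the graft of mouse 2 of Experiment 2 this held for Gadd45g (5.83), H2-Q7 (-0.87), H2-T22 (3.67), Irf7 (7.31) and Oas1a (-0.87). In the graft of mouse 3 of Experiment 2 this held for Pdlim7 (8.97). In the graft of mouse 4 of Experiment 2 this held for Calcr (1.32), Cdh15 (0.16), Fgfr4 (1.90), Myod1 (3.64) and Tshr (0.16). In the graft of mouse 5 of Experiment 2 this held for H2-Q6 (0.95), Mest (5.04) and Slc22a3 (4.27). In the graft of mouse 6 of Experiment 2 this held for Relb (5.73). In the pre-graft library of mouse 3 of Experiment 1 this held for Hoxa5 (0.15). In the pre-graft library of mouse 5 of Experiment 1 this held for Plxna4 (2.33). In the pre-graft library of mouse 1 of Experiment 2 this held for Cxcl2 (-1.39), Fmod (1.76), Rpl10 (10.54) and Rpl3 (10.21). In the pre-graft library of mouse 2 of Experiment 2 this held for C2 (3.63), Cd68 (5.45), Dusp6 (-2.07), Fcer1g (5.00), Itgam (1.08) and Nid1 (7.07). In the pre-graft library of mouse 4 of Experiment 2 this held for Cox6a2 (-0.27). In the pre-graft library of mouse 5 of Experiment 2 this held for Lrp5 (5.54).

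The change on grafting differed between EOM and TA cells, by the interaction term in limma, in Ccnd1 (3.12), Cd34 (-1.81), Dusp5 (2.53), Hoxa10 (4.11), Hoxc10 (5.15), Hoxc11 (4.39), Hoxc9 (5.03), Lbx1 (5.51), Lmx1a (-5.15), Mobp (-7.02), Pdlim7 (-1.63) and Socs2 (-1.40) among the genes named, where the value is the EOM change minus the TA change in log2 units. Lbx1, Hoxa10 and Hoxc11 had no read in any EOM library and Hoxc10 had 1, so these 4 values rest on the fall in TA cells and on the shallower EOM grafts. Hoxc9 was read in 1 EOM graft and in all 8 TA libraries before grafting, so its value rests largely on the same fall in TA cells and shallower EOM grafts.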

How the results depend on the processing

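Counts of genes called are given with their percent of the genes each setting tested. From 750 higher and 932 lower, log2 RPM as deposited (mitochondrial genes in the library size) gave 460 (3.51%) and 7302 (55.8%), edgeR 930 and 358 (2.78%), DESeq2 1213 (9.44%) and 545 (4.24%), no filter on low values 5989 (30.2%) and 1475 (7.44%), and a stricter filter 465 higher (4.31%). A library without a read stood 1.48 higher on average in grafts, through the value of 0.9 of a read. Without a filter, genes read in hardly any library were tested too, so the 5989 are not all genes that rose. The share of higher genes among those called was 44.6%, and 5.93% as deposited, 57.2% after centring, 72.2% in edgeR, 69.0% in DESeq2 and 80.2% without a filter, the last affected in the same way. The median change of all genes tested was -0.42, and -1.48 as deposited, -0.25 after centring and -0.07 in edgeR. The mitochondrial covariate gave 59 (0.458%) and 123 (0.956%), all 20 libraries 0.720% higher and 1.36% lower of 14590 genes tested, and Experiment 2 alone 505 lower (4.09%). Leaving out grafts of fewer than 20 cells gave 417 higher (3.32%) and, chosen after seeing the data, leaving out grafts of over 40% mitochondrial reads gave 463 higher (3.67%). Without the Experiment 1 graft, also chosen after seeing the data, 976 and 1391 were called. The EOM and TA changes differed in 23 genes, and in 5 in Experiment 2 alone. The difference in genes detected became 217.3 (exact permutation test, p = 0.971) with all 20 libraries, and that on the first principal component 93.2 (permutation test, p = 0.772). Both rest on 1 pre-graft library, that of mouse 1 of Experiment 1, with 2526 reads in all and 184 genes detected. Without it, as chosen after seeing the data, the other 19 libraries differed by -1122 genes (exact permutation test, p = 0.0613) and by 139.9 on the component (p = 0.000314), and 971 genes were called higher and 831 lower. Under the mitochondrial covariate Ccnd2 turned to -0.19 (adjusted p = 0.944) and Tgfbr1 to 0.50 (adjusted p = 0.622). Apart from this effect of the value without a read, the causes were not tested. Shallow grafts limit genes with few reads.

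In the paired analysis, with the donor as a replicate block, 180 genes (1.40%) were called higher, 157 (1.22%) lower and 16 by the interaction, and the component differed by 144.5 (exact sign flips, p = 0.0625). The mitochondrial share differed by 21.8 points (exact sign flips, p = 0.0312) and the genes detected by -1655 (p = 0.0312), the smallest p that 6 pairs allow. Among 156 named genes, 2230 values under the alternatives kept direction and side of the threshold, 432 lost and 100 gained a call, and 2 reversed.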

Other observations

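The genes in this section were chosen after their values were seen, so their calls support nothing beyond themselves. Imprinted genes, which are expressed from 1 parental allele, were among the lower calls besides Meg3, and Cdkn1c, also imprinted, was called higher (1.56, adjusted p = 0.00382). No list of imprinted genes was tallied, so these are single genes. Rtl1, a retrotransposon-derived gene of the Meg3 cluster, went from 120.5 RPM [64.2 to 249] to 10.7 RPM [1.42 to 37.4] (log2 difference -3.61 ± 0.58, adjusted p = 0.000662), though antisense transcripts share its locus and the strand used in counting is not given in the sources used here. Mest went from 494 RPM [427 to 599.9] to 203 RPM [32.9 to 250.2] (log2 difference -1.85 ± 0.34, adjusted p = 0.00173). Zdbf2 went from 68.9 RPM [38.5 to 118] to 6.21 RPM [0 to 26.1] (log2 difference -3.90 ± 0.72, adjusted p = 0.00183) and Ndn from 61.7 RPM [53.4 to 77.3] to 14.8 RPM [0 to 35.7] (log2 difference -2.71 ± 0.69, adjusted p = 0.0142, 0.0912 with the donor block), and in all 4 every graft lay below every pre-graft library. Igf2 (-0.19, adjusted p = 0.805) and H19 (-0.81, adjusted p = 0.435), a pair of neighbouring imprinted genes, did not pass and overlapped between groups. Dlk1, also of the Meg3 cluster, was read in all 8 pre-graft libraries at 4.86 RPM [0.264 to 10.3] and in no graft, and did not pass (-1.91, adjusted p = 0.0766).

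Receptors and effectors of 2 further pathways were lower. Gfra1, the receptor that binds glial cell line-derived neurotrophic factor, went from 363 RPM [278 to 440.0] to 44.8 RPM [0 to 63.8] (log2 difference -4.48 ± 0.79, adjusted p = 0.00122), and its signalling partner Ret from 49.7 RPM [20.3 to 102] to 0 RPM [0 to 13.5] (log2 difference -4.59 ± 0.70, adjusted p = 0.000417). Of the Hedgehog pathway, the transcription factor Gli2 went from 51.8 RPM [40.8 to 58.5] to 1.82 RPM [0 to 10.1] (log2 difference -4.24 ± 0.60, adjusted p = 0.00023), and the ligand co-receptor Gas1 from 1263 RPM [853 to 1556] to 373 RPM [62.5 to 737] (log2 difference -1.97 ± 0.38, adjusted p = 0.00254). Genes also read in vessel walls were higher, with no overlap between groups. Gja1, the gap junction protein connexin 43, went from 84.1 RPM [48.5 to 172] to 857 RPM [220.1 to 1329.7] (log2 difference 2.79 ± 0.38, adjusted p = 0.000175). Sparcl1 went from 22.4 RPM [7.66 to 128] to 617 RPM [201 to 1279] (log2 difference 4.20 ± 0.57, adjusted p = 0.000175) and the smooth muscle myosin gene Myh11 from at most 0.47 RPM to 27.1 RPM [2.72 to 67.7] (log2 difference 5.82 ± 0.71, adjusted p = 8.23e-05).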
